A study of Rattus norvegicus with 24 samples.

Results

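Thoracic propriospinal (TPS) neurons were profiled 1 week after their axons had been cut by a complete spinal transection at low thoracic level, and were compared with TPS neurons of uninjured rats killed 10 days after labeling. The comparison used 8 of the 24 arrays of the series, namely the 4 arrays from transected animals of 1 week (replicates 1, 2, 4 and 5) and the 4 arrays from uninjured 10-day controls (replicates 1 to 4), and each array held the RNA of 1 animal. All animals were female Long Evans rats of 77 ± 10 days, and in all of them the neurons had been marked by the retrograde tracer Fluoro-Gold, injected into the lumbosacral enlargement. Labeled neurons were cut out of the intermediate gray matter of the thoracic cord by laser. The groups thus shared the tracer, the injection surgery and the amplification of the RNA. They differed in the transection and in the operation it required. They differed in time as well, because the transected animals had been labeled 1 week before injury and were thus 2 weeks past labeling when killed. The titles call the uninjured group a control of 4 days, and the sources used here do not say from when that time was counted. Injury and the days since labeling cannot be told apart in this comparison. Neither can the cut of the axons and the rest of that operation, a second anesthesia and a low thoracic laminectomy. The study describes no sham operation for the controls. The antibiotic and analgesic that transected animals received after surgery cannot be told apart from injury either. The arrays of 3 days after transection (n = 4) and the 3-week controls (n = 4) are set beside the main comparison where they bear on it.

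Propriospinal neurons connect segments of the spinal cord with each other. Those of the thoracic cord that reach the lumbar cord carry signals between the forelimb and hindlimb circuits, and a low thoracic transection cuts their descending axons a few segments below the cell bodies. In peripheral neurons such a cut switches on transcription factors, growth-associated proteins and neuropeptides that accompany regrowth, whereas central neurons switch on fewer of them. At 1 week single genes differed little in these cells. The families of genes that moved together are therefore described first as families, then by their members.

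The labeled cell type was visible in the arrays. In the 10-day controls the neuronal surface protein Thy1, the vesicle fusion protein Snap25 and the neurofilament gene Nefm had mean log2 intensities of 12.29, 12.26 and 12.06. Of 21 neuronal markers, 13 were higher at 1 week and 8 lower, and their family mean on the 1-week arrays stayed between -0.01 and 0.02 of the control mean. Glial and vascular transcripts were present too, with log2 intensities of 11.81 for Aldoc and 11.09 for Slc1a2 of astrocytes, 11.27 for the myelin gene Mbp, 10.75 for Ctss of microglia, 10.32 for Rgs5 of pericytes and 11.68 for the hemoglobin gene Hbb, all in the 10-day controls. Within the controls 2 arrays stood apart. The quality weights that limma gave to controls 3 and 4 were 0.33 and 0.48, against 0.76 to 1.46 for the other 6 arrays, and control 3 was low in transcripts of astrocytes (family mean -0.50) and of microglia (-0.63) while control 4 was high in those of astrocytes (0.30). The main family results and the leading genes below are therefore also given against controls 1 and 2 only.

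No single probe passed the test. Of 23240 probes above the lowest 15 percent of mean log2 intensity, limma called 0 at an adjusted p under 0.05 (0%, smallest adjusted p = 0.149), and the methods' t-test called 0 as well, with 647 probes at an unadjusted p under 0.05. At an unadjusted p under 0.05 limma had 500 higher (2.15%) and 531 lower probes (2.28%). The 4 arrays of 1 week lay wholly above the 4 control arrays for 168 probes (0.723%) and wholly below them for 241 (1.04%). Differences were small throughout, with 5% of probes below -0.23 and 5% above 0.23 on the log2 scale. These shares are the background against which the counts of each family are to be read. Between 3 days and 1 week, which can be compared directly without the controls, limma called 126 probes higher (0.542%) and 448 lower (1.93%) at 1 week. The 3-day animals were killed 10 days after labeling, like the controls. Time since injury and days since labeling cannot be told apart in this comparison either.

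**Figure D1:**
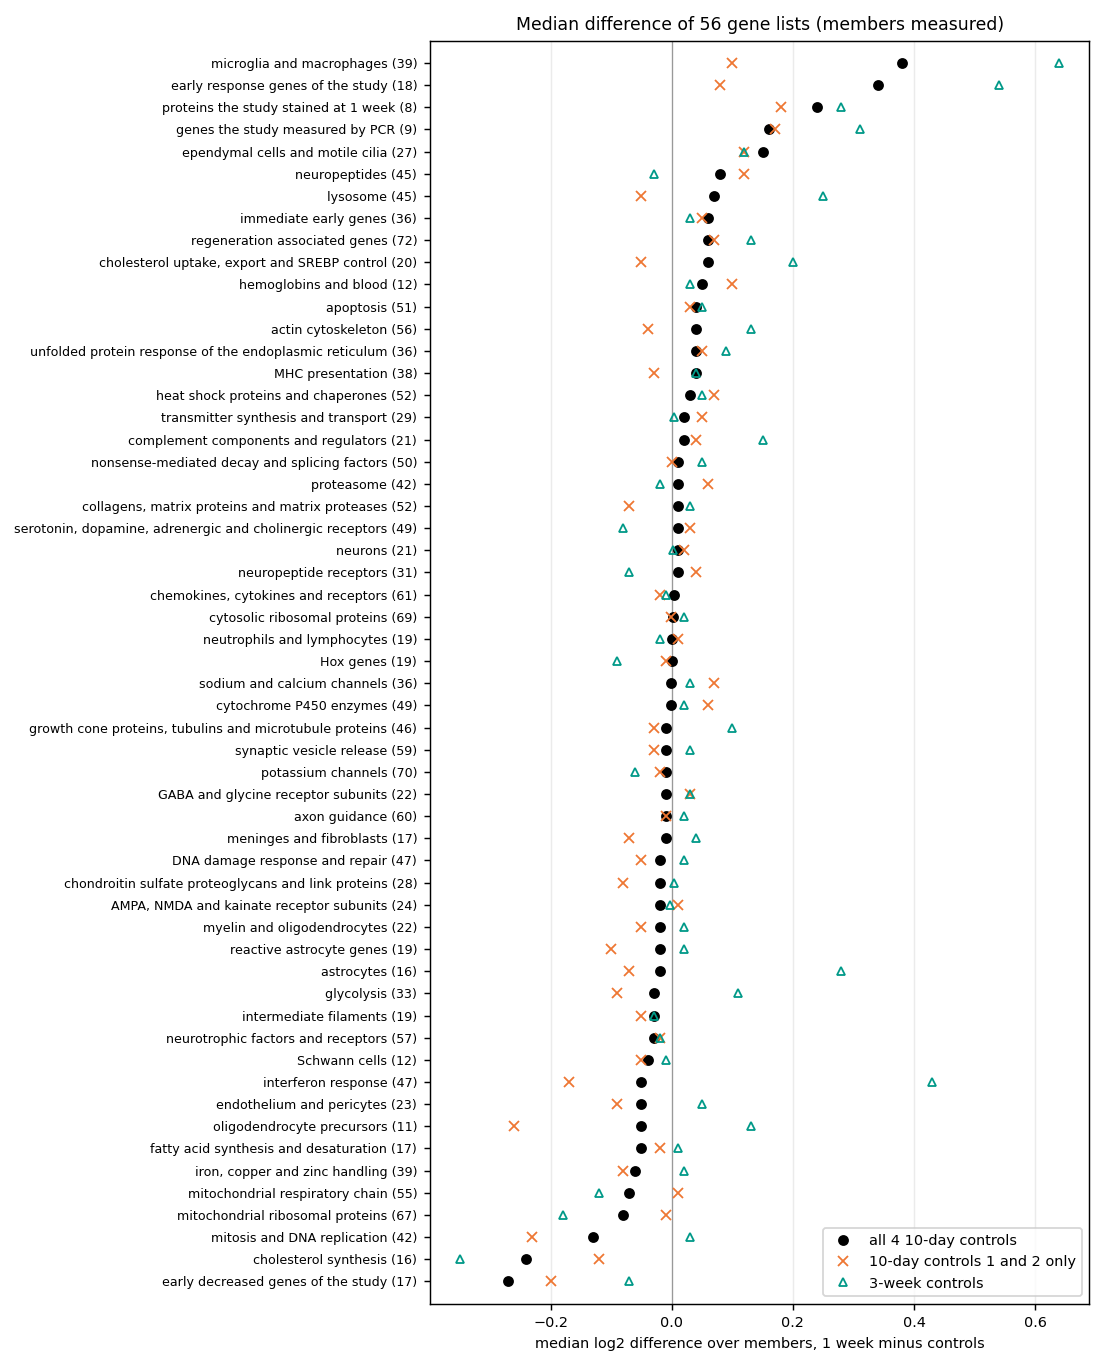
Median log2 difference between 1 week and controls (horizontal axis) over the measured members of each of the 56 gene lists (vertical axis, number of members in parentheses), against all 4 10-day controls (circles), 10-day controls 1 and 2 only (crosses) and 3-week controls (triangles). The microglial list stands farthest to the right with circles (0.38) and lies at 0.10 with crosses, while the cholesterol synthesis list is on the left with all 3 symbols.

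Genes that accompany axon regrowth stood higher at 1 week. Of 72 measured regeneration associated genes 50 were higher, 10 of them and 0 lower ones at an unadjusted p under 0.05, and for 8 the arrays of 1 week lay wholly above the controls. The median difference was small, 0.06, and it was 0.07 against controls 1 and 2 only and 0.13 against the 3-week controls. Averaged over the family, the 1-week arrays stood at 0.14, 0.10, 0.09 and 0.16 and the controls at 0.05, 0.04, -0.09 and 0.01, all relative to the control mean on the log2 scale. All 4 injured animals thus lay above all 4 controls, and the same held for the immediate early genes, transcription factors that cells switch on quickly after a stimulus (0.08, 0.07, 0.07 and 0.13 against 0.01, 0.02, 0.02 and -0.05, 23 of 36 higher, median 0.06). The regeneration associated and immediate early lists share members, among them Atf3. Of the 56 lists, full separation was also seen for cholesterol synthesis and for 3 lists taken from the study. These were its early decreased genes, the genes it measured by PCR and the proteins it stained at 1 week. How many of the 56 would separate by chance was not tested, and all of them rest on the same arrays. The study had already picked regeneration genes, among them Atf3, Stat3 and Gap43, as changed, in a test that included these same arrays. The separation of the regeneration associated genes is therefore no independent evidence. Genes named here and below that do not fall under the rule for named genes were picked after their values had been seen.

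Transcription factors are described first. Atf3, a factor induced in nearly every axotomized neuron of the periphery, had log2 intensities of 6.64, 7.36, 6.61 and 7.14 at 1 week and of 6.19, 6.07, 6.11 and 5.57 in the controls. The groups did not overlap, and the mean difference was 0.96 (SE 0.27, adjusted p = 0.999). At 3 days Atf3 had been higher still, and the fall between the times passed the test (1 week minus 3 days -1.22, SE 0.27, adjusted p = 0.0164). Stat3, which carries cytokine signals from axon to nucleus, stood 0.37 (SE 0.13) above the controls (0.24 without control 3) and was likewise lower than at 3 days (-0.52, adjusted p = 0.0400). Egr1, an activity-induced factor, went the other way. It stood 0.34 (SE 0.16) above the controls at 1 week and -0.43 from them at 3 days, and the rise of 0.77 from 3 days to 1 week passed the test (SE 0.16, adjusted p = 0.0100). The AP-1 member Fosl1 lay at 5.99 to 6.38 at 1 week and at 5.95 to 5.97 in the controls, a difference of 0.15 without overlap that was 0.06 without replicate 5 of 1 week.

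Receptors for growth factors and cytokines formed the next group. Ret, the signaling receptor of the GDNF family of neurotrophic factors, had values of 8.46, 8.89, 8.57 and 8.86 at 1 week and of 8.37, 8.38, 7.64 and 8.15 in the controls. The difference of 0.56 (SE 0.16) went without overlap, was 0.32 against controls 1 and 2 only, and was smaller than at 3 days (1 week minus 3 days -0.90, SE 0.16, adjusted p = 0.00322). Its partner Gfra1, which binds GDNF itself, stood at 0.31 (SE 0.14) with overlap, at 0.19 without control 3 and at 0.18 against controls 1 and 2 only. Tnfrsf12a, the receptor of the cytokine TWEAK, had 7.94, 7.97, 8.35 and 8.26 against 7.58, 7.86, 7.93 and 7.61, without overlap (0.39, SE 0.12). Lifr, the receptor of leukemia inhibitory factor, stood at 0.16 (SE 0.11). In the wider list of neurotrophic factors and receptors 18 of 57 were higher (median -0.03).

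Effector genes followed. The growth cone protein Gap43 had 10.95, 11.00, 11.00 and 11.05 at 1 week and 10.89, 10.69, 10.82 and 10.89 in the controls, so that a difference of only 0.18 (SE 0.07) came without overlap. The small heat shock protein Hspb1 stood at 8.68, 8.83, 8.62 and 9.18 against 8.55, 8.76, 7.44 and 7.66. Its difference of 0.73 (SE 0.26) rested on controls 3 and 4 and was 0.17 against the other controls, while its decline from 3 days passed the test (-1.77, SE 0.26, adjusted p = 0.000557). The matrix protease Mmp3 was at 6.28 to 6.51 at 1 week and at 5.65 to 6.07 in the controls (0.60, SE 0.15), near its level of 3 days (1 week minus 3 days -0.07, adjusted p = 0.929). The cell cycle inhibitor Cdkn1a stood at 0.63 (SE 0.21) with overlap. One member lay wholly below the controls, the tubulin gene Tubb2b, at 7.70 to 7.80 against 7.85 to 8.18. This tubulin was lower at 1 week than at 3 days by a wide margin (-1.48, SE 0.19, adjusted p = 0.000135).

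**Figure D2:**
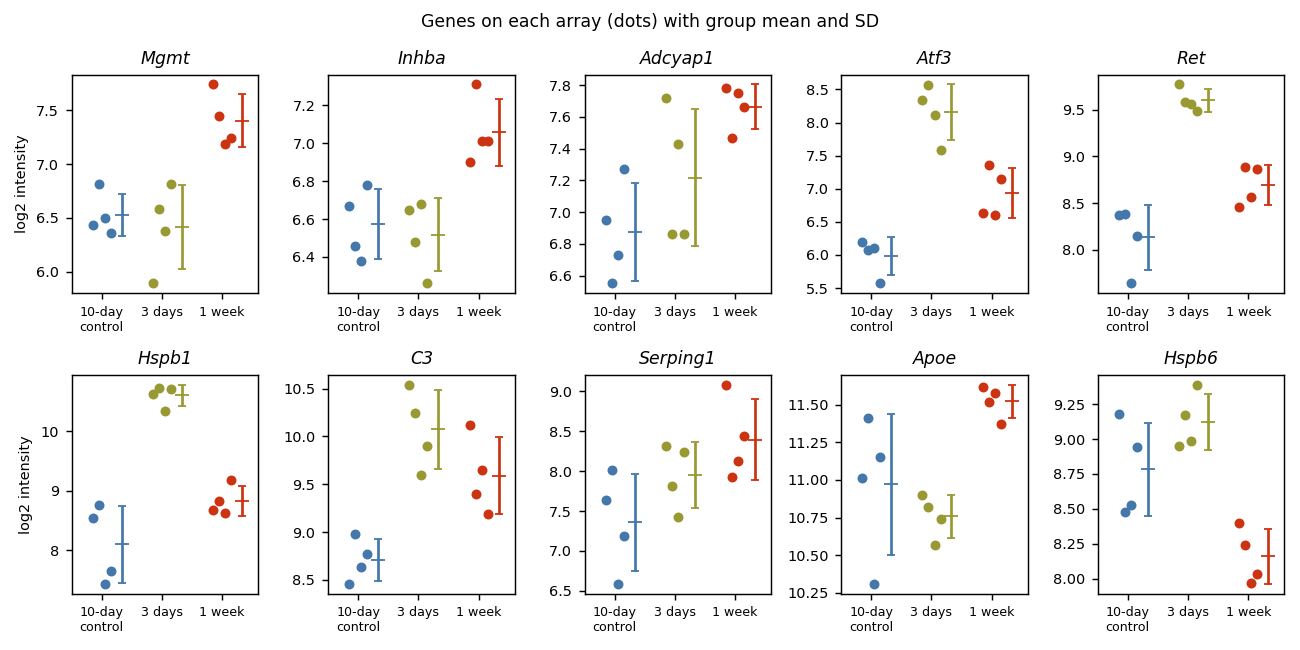
Log2 intensity (vertical axes, scaled for each gene) of 10 genes in each animal of the 10-day controls, 3 days and 1 week (horizontal axis; dots are arrays, bars the group mean with SD, n = 4 animals in each group). Mgmt and Inhba lie higher at 1 week than in both other groups, whereas Atf3, Ret and Hspb1 peak at 3 days and Hspb6 is lowest at 1 week.

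A second kind of gene was higher at 1 week without having been so at 3 days. Mgmt, the enzyme that removes alkyl groups from guanine in DNA, had log2 intensities of 7.74, 7.45, 7.19 and 7.24 at 1 week and of 6.43, 6.81, 6.50 and 6.36 in the controls. The groups did not overlap and the difference of 0.88 (SE 0.15, adjusted p = 0.149), the one with the smallest p of all probes, corresponds to a ratio of 1.84. At 3 days the gene stood at -0.11, and its rise from 3 days to 1 week passed the test (0.99, SE 0.15, adjusted p = 0.000572). Inhba, the subunit of activin A, had 6.90, 7.31, 7.01 and 7.01 against 6.67, 6.46, 6.38 and 6.78, again without overlap. Its difference from the controls was 0.49 (SE 0.13), and its difference from 3 days 0.54 (SE 0.13, adjusted p = 0.0230). Against the 3-week controls Inhba stood at 0.12, whereas Mgmt kept 0.76. The reverse course was that of Hspb6, another small heat shock protein. It had 8.40, 8.24, 7.97 and 8.03 at 1 week and 9.18, 8.48, 8.53 and 8.94 in the controls, without overlap (-0.62, SE 0.16), although it had stood at 0.34 at 3 days (1 week minus 3 days -0.96, SE 0.16, adjusted p = 0.00140). Against controls 1 and 2 only the differences were 0.79 for Mgmt, 0.50 for Inhba and -0.67 for Hspb6.

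The other genes with the smallest p gave differences of similar size. Among those higher, the membrane protein Emp3 stood at 0.50 (SE 0.13), the lectin receptor Clec12a at 0.62 (SE 0.17), the B cell adaptor Klhl6 at 0.71 (SE 0.19) and Cd4, a co-receptor that rat macrophages also carry, at 0.80 (SE 0.22). Emp3 was lower than at 3 days (-0.59, adjusted p = 0.0138). Among those lower were Spag4, Cyp2t1 and Smg9 at -0.41, -0.47 and -0.35, Kank4 at -0.55 (SE 0.14), the sialyltransferase St3gal3 at -0.50 (SE 0.13) and the aldo-keto reductase Akr1c15 at -0.50 (SE 0.14). St3gal3 stood at -0.01 against the 3-week controls. Zcchc7 had -0.61 (SE 0.16) on one probe and 0.25 on its brighter probe, so that its direction is unsettled. Of 51 apoptosis genes 31 were higher, 5 of them at an unadjusted p under 0.05 against 2 lower ones, with a median of 0.04. Besides Tnfrsf12a the higher ones included Casp4, Bard1 and the survival factor Mcl1, at 0.39, 0.29 and 0.18. Each rested in part on 1 array, with 0.19 for Casp4 without control 3, 0.18 for Bard1 without control 4 and 0.10 for Mcl1 without replicate 1 of 1 week. Of 47 genes of the DNA damage response 20 were higher, with Mgmt, Cdkn1a, Mdm4 (0.41) and Bard1 at an unadjusted p under 0.05 against Brca1 (-0.18), Brca2 (-0.32) and Sesn1 (-0.28) on the lower side. Mdm4 was at 0.27 and Brca2 at -0.20 without control 1. This list did not move one way.

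Cholesterol synthesis genes were lower as a family. Neurons and glia make their own cholesterol because none crosses from the blood, by a chain of enzymes that builds squalene from acetyl-CoA, closes it to lanosterol and trims the rings, and the genes of the chain are usually switched together by the transcription factor SREBP-2 with help from NF-Y and Sp1. All 16 measured members were lower at 1 week than in the 10-day controls, by a median of -0.24, against a median near 0 over all probes. For 7 members the unadjusted p was under 0.05, and for Cyp51 and Tm7sf2 the arrays did not overlap. The family mean was -0.21, -0.12, -0.27 and -0.36 on the 1-week arrays and -0.09, -0.09, 0.07 and 0.11 on the controls. All 4 injured animals lay below all 4 controls, but the gap to controls 1 and 2 was narrow. Against those controls the median was -0.12 with 3 of the 16 higher, and against the 3-week controls it was -0.35 with 0 higher.

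The promoters of 4 members are shown because 3 of them hold the CCAAT box that was frequent in this family, and Cyp51 because it differed most. They are the 250 bases before the annotated start in RefSeq on the build GRCr8, in the direction of transcription, with CCAAT boxes (read as ATTGG on the other strand) and GC boxes (GGGCGG, or CCGCCC on the other strand) in capitals. Cyp51 lies at chr4:30991443-30991692 on the plus strand, and Tm7sf2 at chr1:212789542-212789791, Idi1 at chr17:66547525-66547774 and Mvd at chr19:67414975-67415224 on the minus strand.
Cyp51: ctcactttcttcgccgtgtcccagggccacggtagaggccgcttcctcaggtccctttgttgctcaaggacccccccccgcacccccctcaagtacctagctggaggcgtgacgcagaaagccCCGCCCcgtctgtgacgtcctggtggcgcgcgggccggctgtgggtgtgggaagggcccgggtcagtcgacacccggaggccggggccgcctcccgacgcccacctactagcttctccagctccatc
Tm7sf2: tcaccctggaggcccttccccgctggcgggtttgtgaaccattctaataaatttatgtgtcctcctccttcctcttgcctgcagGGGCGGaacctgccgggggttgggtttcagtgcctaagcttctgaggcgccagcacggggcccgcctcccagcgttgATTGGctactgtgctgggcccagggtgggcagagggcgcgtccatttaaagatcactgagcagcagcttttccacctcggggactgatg
Idi1: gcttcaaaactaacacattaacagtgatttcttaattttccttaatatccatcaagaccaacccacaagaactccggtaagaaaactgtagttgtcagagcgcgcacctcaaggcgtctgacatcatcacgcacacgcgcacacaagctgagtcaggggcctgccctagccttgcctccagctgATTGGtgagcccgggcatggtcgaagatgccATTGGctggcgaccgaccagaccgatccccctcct
Mvd: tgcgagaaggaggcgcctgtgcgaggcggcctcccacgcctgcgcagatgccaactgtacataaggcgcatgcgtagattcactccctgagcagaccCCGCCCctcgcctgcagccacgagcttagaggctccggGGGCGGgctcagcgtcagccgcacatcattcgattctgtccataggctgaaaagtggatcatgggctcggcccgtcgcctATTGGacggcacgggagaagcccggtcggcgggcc
The Tm7sf2, Idi1 and Mvd windows held 1, 2 and 1 CCAAT boxes, all on the reverse strand, and that of Cyp51 held 0. In all, 13 of the 16 members matched the promoter table (Fdft1, Pmvk and Sqle did not), and 10 of the 13 windows held a CCAAT box (76.9%), against 34% of all 33469 promoters of that length. GC boxes were as frequent in them (10 of 13, against 30.5%), the core of the cAMP response element, TGACG, was found in 6 of 13 (46.2%, against 18.2%) and the letters of the sterol response element TCACNCCAC in 0 of 13 (0.974% of all). The E-box CACGTG was in 1 of 13 (5.59% of all) and the full cAMP response element TGACGTCA in 0 of 13 (1.59%). All motifs were sought on both strands, and TGACG also counts where it is part of TGACGTCA. TGACG was also frequent in the respiratory chain (49%), regeneration associated (44.6%) and neuropeptide lists (41.2%). In the mitochondrial ribosomal and microglial lists it was found in 29.6% and 7.41%. CCAAT boxes were in 51.9% of the microglial windows and GC boxes in 50% of the regeneration associated ones.

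Along the pathway the differences were of one direction and of unequal size. In the early part, Acat2, Pmvk, Mvd and Idi1, which lead from acetyl-CoA to isoprene units, stood at -0.24, -0.15, -0.21 and -0.31 (SE 0.12, 0.10, 0.08 and 0.18). Fdft1 and Sqle, which make and oxidize squalene, stood at -0.30 (SE 0.11) and -0.25 (SE 0.12), and Lss, which closes the rings, at -0.19 (SE 0.14). The lanosterol demethylase Cyp51 had the largest difference of the list, with 9.37, 9.39, 9.31 and 8.88 at 1 week and 9.61, 9.55, 9.80 and 9.93 in the controls (-0.49, SE 0.12). The next enzyme, the sterol reductase Tm7sf2, had 6.65, 6.82, 6.51 and 7.02 against 7.36, 7.04, 7.18 and 7.03 (-0.40, SE 0.11). Further down, Nsdhl, Hsd17b7, Sc5d and Dhcr7 were at -0.24, -0.23, -0.22 and -0.27, while Msmo1 and Ebp were at -0.12 and -0.07 and the branch enzyme Ggps1 at -0.14. Single arrays weighed on several members. Without replicate 5 of 1 week Sqle was at -0.13 and Pmvk at -0.09, without control 3 Idi1 was at -0.19 and Lss at -0.12, without control 2 Dhcr7 was at -0.14, without control 1 Nsdhl was at -0.37, and without control 4 Ebp was at -0.01 and Ggps1 at -0.03. The control groups differed among themselves in this family, with medians 0.13 higher at 3 weeks and 0.34 higher at 5 weeks after labeling than at 10 days, and this was not tested. At 3 days the median was -0.18, and for 0 of the 16 did limma call a difference between 3 days and 1 week.

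**Figure D3:**
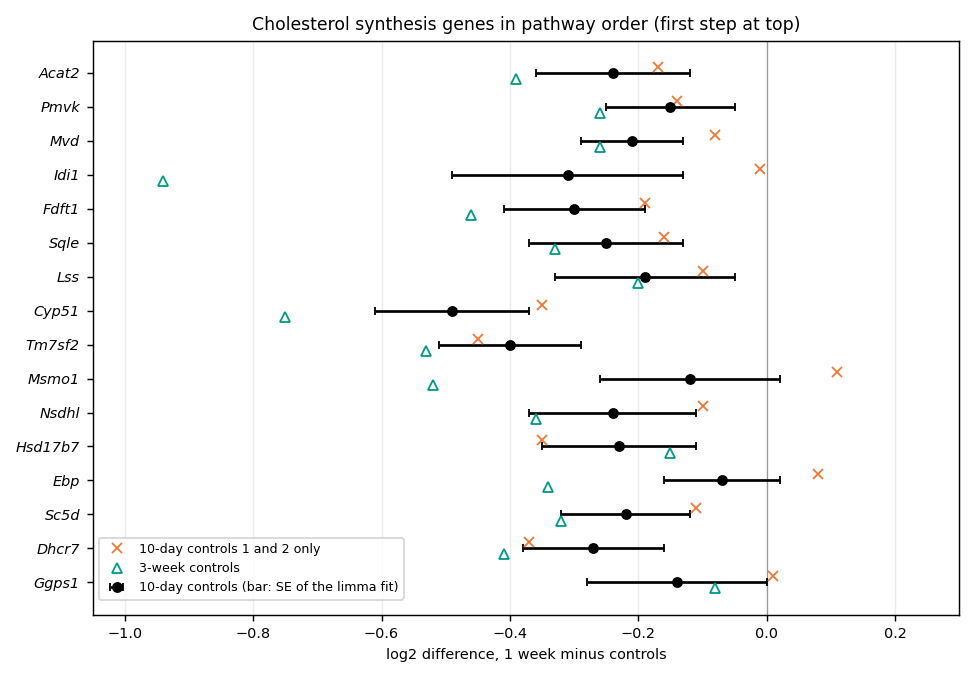
Log2 difference between 1 week and controls (horizontal axis) for the 16 measured cholesterol synthesis genes in pathway order (vertical axis), against all 4 10-day controls (circles with SE), controls 1 and 2 only (crosses) and 3-week controls (triangles). All circles and all triangles lie below 0, and 3 crosses (Msmo1, Ebp and Ggps1) do not.

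Genes for the transport of cholesterol did not follow its synthesis. Of 20 genes of uptake, export and SREBP control 11 were higher and 9 lower. Apoe, the main lipid carrier of the nervous system, had 11.62, 11.52, 11.58 and 11.37 at 1 week and 11.01, 11.41, 10.31 and 11.15 in the controls, a difference of 0.55 (SE 0.17) that was 0.31 against controls 1 and 2 only. At 3 days Apoe stood at -0.21, and it was higher at 1 week than at 3 days (0.76, SE 0.17, adjusted p = 0.0205). The neighboring carrier gene Apoc1, picked after its values were seen, had 9.05, 8.93, 9.05 and 8.66 at 1 week and 6.48, 7.07, 7.33 and 6.77 at 3 days, 2.01 higher (SE 0.21, adjusted p = 1.91e-05), with the controls between them at 7.68, 8.85, 8.11 and 8.17. Stard4, which moves cholesterol inside the cell, stood at -0.36 (SE 0.13), and Lcat, which esterifies it, at -0.31 (SE 0.12). Without control 2 they were at -0.21 and -0.16, and without control 3 Apoe was at 0.33.

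Microglial genes stood higher, and most so in one animal. Of 39 markers of microglia and macrophages 35 were higher, 13 of them and 0 lower ones at an unadjusted p under 0.05, with a median of 0.38. The family mean was 0.61, 0.17, 0.33 and 0.21 at 1 week and 0.06, 0.40, -0.63 and 0.17 in the controls, so the groups overlapped and control 3 lay far below all others. Without control 3 the median was 0.16, and against controls 1 and 2 only it was 0.10 with 28 of the 39 higher. Summed over the 39 probes, the intensity ran from 11228 to 15252 at 1 week and from 5690 to 13176 in the controls. In RNA pooled from many captured neurons, more cells of a type and more RNA per cell cannot be told apart. By name, Clec4a1 stood at 0.41 (SE 0.13), the transcription factor Irf8 at 0.61 (SE 0.23), the actin-bundling protein Lcp1 at 0.52 (SE 0.20, and 0.28 without control 3), the adaptor Hcst at 0.55 (SE 0.22) and the complement chain C1qc at 0.64 (SE 0.24, and 0.31 without control 3). Compared with 3 days the family was lower, by a median of -0.61, and 13 of the 39 passed the test on the lower side and 0 on the higher. Other immune lists did not share the difference. Of 47 genes of the interferon response 19 were higher (median -0.05, and -0.17 against controls 1 and 2 only, but 0.43 against the 3-week controls), of 38 genes of MHC presentation 23 (0.04), of 61 chemokines, cytokines and receptors 31 (0.0032) and of 19 markers of neutrophils and lymphocytes 10 (0.00077).

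Complement genes split. Of 21 measured, 11 were higher (median 0.02), 5 of them and 0 lower ones at an unadjusted p under 0.05. Serping1, the inhibitor of C1, had 9.08, 7.93, 8.13 and 8.44 at 1 week and 7.64, 8.01, 6.59 and 7.19 in the controls, a difference of 1.04 (SE 0.27) that was 0.57 against controls 1 and 2 only. C3, the central component, had 10.12, 9.40, 9.65 and 9.19 against 8.46, 8.98, 8.64 and 8.77, without overlap (0.88, SE 0.30, and 0.87 against controls 1 and 2). Clu, an inhibitor of the terminal complex that also carries lipid, had 10.03 to 10.17 at 1 week and 9.41 to 9.96 in the controls, also without overlap (0.31, SE 0.09, and 0.18 without control 3), and C1qb stood at 0.35 (SE 0.15, and 0.23 without replicate 1 of 1 week). The chemokine Cxcl13 differed most of all genes tested, by 1.58 (SE 0.63), with 9.08, 6.75, 8.51 and 7.38 against 6.08 to 6.54, and against the 3-week controls it stood at 0.49. Of 45 lysosomal genes 35 were higher, with a median of 0.07, but this median was -0.05 against controls 1 and 2 only. Markers of astrocytes and of myelin did not move together, with 7 of 16 and 9 of 22 higher and medians of -0.02 each.

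**Figure D4:**
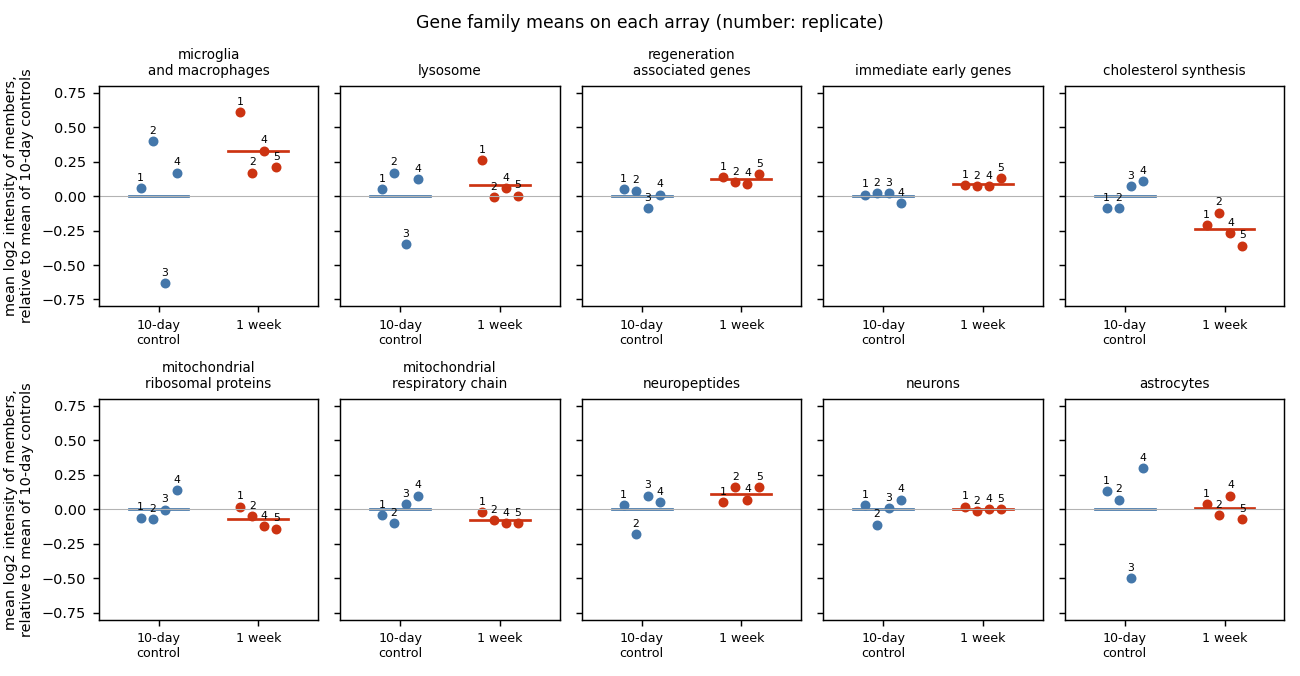
Mean log2 intensity over the members of 10 gene lists on each array, relative to the mean of the 10-day controls (vertical axis), for 10-day controls (blue) and 1 week (red), with group means as bars and replicate numbers above the dots. The 1-week animals lie wholly above the controls for the regeneration associated and the immediate early genes and wholly below them for cholesterol synthesis, and control 3 lies far below the other arrays for the microglial, lysosomal and astrocyte lists.

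Nuclear genes of the mitochondrion leaned lower by small amounts. Mitochondria carry their own ribosomes, which make a few subunits of the respiratory chain, and all proteins of these ribosomes and most subunits of the chain come from the nucleus. Of 67 mitochondrial ribosomal proteins 12 were higher and 55 lower (median -0.08), with 4 lower and 0 higher at an unadjusted p under 0.05. Of 55 subunits of the respiratory chain 7 were higher and 48 lower (median -0.07), again with 4 lower and 0 higher. In each family 3 did not overlap on the lower side, for example Mrpl40 at 7.60 to 7.94 against 7.96 to 8.26, and Cox8a at 11.03 to 11.16 against 11.24 to 11.34. Against controls 1 and 2 only the medians were -0.01 and 0.01, and among the controls the family means were highest on controls 3 and 4. Against the 3-week controls the medians were -0.18 and -0.12. Cytosolic ribosomal proteins did not lean, with 37 of 69 higher.

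Neuropeptide genes leaned higher. Neuropeptides are made by subsets of spinal interneurons, and several are induced by axotomy in sensory and motor neurons. Of 45 measured, 34 were higher (median 0.08), 4 of them and 0 lower ones at an unadjusted p under 0.05. The other 11 were lower, by -0.21 at most. The median log2 intensity of the members was 6.56 in the controls. Some members lay near the filter of 5.05, so that their direction counts for little. Among these Grp, Pmch and Npvf (5.07, 5.21 and 5.26) were higher and Rln3 (5.14) was lower. Strongly expressed members did not all follow. Sst and Cartpt, at mean log2 intensities of 9.37 and 9.40 in the controls, stood at 0.01 and -0.02. They are not counted among the 89 genes followed through the settings below. The family mean was 0.05, 0.16, 0.07 and 0.16 at 1 week and 0.03, -0.18, 0.10 and 0.05 in the controls, with overlap. The median was 0.12 against controls 1 and 2 only and 0.04 without control 2. Against the 3-week controls it was -0.03, with 19 of 45 higher. Adcyap1, which encodes the injury-induced peptide PACAP, had 7.78, 7.47, 7.75 and 7.66 at 1 week and 6.95, 6.55, 6.73 and 7.27 in the controls. It did not overlap (0.79, SE 0.20), it stood at 0.91 against controls 1 and 2 and at 0.81 against the 3-week controls, and it was the one member without overlap. Its difference from 3 days did not pass the test (0.44, adjusted p = 0.359). The calcitonin gene-related peptides Calcb and Calca stood at 0.62 (SE 0.23) and 0.56 (SE 0.30), the stress peptide Crh at 0.32 (SE 0.15) and Npb at 0.27 (SE 0.12). One array weighed on each of them, with 0.41 for Calcb without control 2, 0.35 for Calca without control 3, 0.17 for Crh without replicate 5 of 1 week and 0.09 for Npb without replicate 4. Vip and Gal, both induced by axotomy in sensory neurons, were at 0.46 (SE 0.41) and 0.22 (SE 0.31) with wide spread, and at 0.30 and 0.04 without replicate 2 of 1 week. Npy stood at 0.32 (SE 0.23), at 0.61 against controls 1 and 2 only and at 0.13 without control 1, and the enkephalin precursor Penk at 0.10 (SE 0.08). The granin Scg2, a protein of peptide-containing vesicles, was higher at 1 week than at 3 days (0.37, adjusted p = 0.0436) and stood at 0.09 (SE 0.10) against the controls.

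The machinery of neuronal signaling showed no shift. Over 9 lists of neuropeptide receptors, glutamate, GABA and glycine receptors, amine and acetylcholine receptors, potassium channels, sodium and calcium channels, synaptic vesicle release, transmitter synthesis and growth cone proteins, the medians lay between -0.02 and 0.02. Potassium channels had 5 lower and 2 higher members of 70 at an unadjusted p under 0.05. Among them, and picked after their values were seen, the calcium-activated Kcnma1 had 7.86 to 8.15 at 1 week and 8.20 to 8.40 in the controls, without overlap (-0.28, SE 0.10, but 0.11 against the 3-week controls), and the leak channel Kcnk4 stood at 0.44 (SE 0.13). In the glutamate list 3 of 24 were lower and 0 higher at that threshold, the metabotropic receptors Grm3 and Grm5 at -0.30 (SE 0.10) and -0.32 (SE 0.13) and the NMDA subunit Grin3b at -0.25 (SE 0.10). Against the 3-week controls these were at -0.07, -0.0045 and -0.15.

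Genes of motile cilia stood higher. Of 52 listed markers of ependymal cells and cilia 27 were measured, and Foxj1 was not. Of these 27 markers 21 were higher, with a median of 0.15. The median was 0.12 against controls 1 and 2 and 0.12 against the 3-week controls. The markers were dim, with a median log2 intensity of 5.93 in the controls, against 6.61 over all probes. Ccdc40 and Hydin, needed for the beat of the cilium, had unadjusted p under 0.05 (0.33 and 0.32, SE 0.14 each, and 0.19 for Hydin without replicate 4 of 1 week), and Mlf1 stood at 0.80 (SE 0.42). The family mean was 0.02, 0.39, 0.33 and 0.06 at 1 week and 0.25, -0.19, -0.08 and 0.03 in the controls, so that animals 2 and 4 carried the difference and the groups overlapped. Grouping by the stem of the gene symbol, which needs no hand-written list, was done for comparison. Of 161 stems with at least 10 genes, Cfap (cilia and flagella associated proteins) had the highest median, 0.12 with 10 of 12 higher, followed by Mmp (matrix metalloproteinases, 0.09, 13 of 17 higher) and Olr (olfactory receptors, 0.08, 21 of 33). The larger olfactory receptor stem Or had a median of 0.02, with 358 of 626 higher. Mmp, Olr and Or were dim, with median log2 intensities of 5.61, 5.54 and 5.54 in the controls, near the filter of 5.05. Cfap was at 6.04. The lowest were Car (carbonic anhydrases, -0.11, 9 of 15 lower), Cyb (-0.10, 7 of 10 lower) and Ndufb (subunits of respiratory complex I, -0.09, 9 of 10 lower).

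Cell division genes had come back from their peak. Of 42 genes of mitosis and DNA replication 30 were lower at 1 week than at 3 days past the test, with a median of -1.07, and Rrm2, Pbk and Ccna2 differed by -3.15, -2.64 and -1.70 (adjusted p = 0.000208, 0.00101 and 1.25e-05). Against the 10-day controls the median was -0.13, but control 1 stood apart. Its family mean was 0.52, while the other 7 arrays lay between -0.24 and -0.12, and without control 1 the median was -0.01. The genes that the study listed as most increased or most decreased, chosen on these same arrays and so no independent evidence, kept part of their early direction. Of 18 increased genes 14 were still higher (median 0.34, and 0.08 against controls 1 and 2 only), and 17 were lower than at 3 days past the test. Of 17 decreased genes all stood lower (median -0.27, and -0.20 against controls 1 and 2), and 11 were higher than at 3 days past the test. Examples of the latter were the fatty acid carrier Fabp3 (-0.33 from the controls, 0.52 above 3 days, adjusted p = 0.0384) and the synaptic scaffold Lin7b (-0.22 and 0.50, adjusted p = 0.0140).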

How the data were processed

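Laser-dissected TPS neurons were hybridized to rat gene ST arrays after RNA amplification, 1 array for each animal. The deposited values are intensities on a linear scale that the authors made with RMA, which corrects background, normalizes between arrays and summarizes the probes, and log2 of this intensity was analyzed. The arrays give no read depth, and their number limits the precision. Probes above the lowest 15% of mean log2 (5.05) were kept, 23240 of 27342. A model of 7 group means over all 24 arrays served as the fit (limma 3.58.1, R 4.3.3), p-values were adjusted by Benjamini-Hochberg over the tested probes, and SE values are those of limma. Of the probes 15097 had 1 gene symbol in the platform annotation, 323 had several and 11922 had none, and 11 were named from the study's tables. Each gene was taken at its brightest probe, except that the genes of smallest p were taken at the probe with that p (Zcchc7). On simulated data for 4 against 4 arrays, 62% of 100 changes of 0.5 and 91% of 100 changes of 1 were recovered, with 10 false calls. The simulated noise was normal, independent between probes and equal in spread on all arrays. The real controls 3 and 4 had low quality weights (0.33 and 0.48), and families shifted together on single arrays. These shares therefore need not hold for the real comparison. Nothing in the labels says more of the replicates than that they are separate samples, so p-values measure the spread between samples. In the main fit this spread is pooled over all 24 arrays and need not be that of the compared arrays. A fit of the 2 groups alone gave 673 probes at an unadjusted p under 0.05, against 1031 in the main fit.

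The members and lists were chosen with earlier results of these data known. Named by rule were the 10 genes of smallest p in each direction, the measured cholesterol synthesis and neuropeptide genes, up to 5 members of other lists with an absolute median of at least 0.1, the genes that the study measured by PCR or staining, the 3 brightest markers of each cell type and the 3 highest and 3 lowest symbol stems. Some genes that fall under the rule are not reported here.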

Additional observations from a re-analysis of the deposited data

Results flagged for a closer look

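In 10 of 206 groups of 4 arrays (genes whose difference from the controls is discussed, and family means, 2 groups each) 1 array lay far from the other 3, and chance alone gives about 1 in 20. Among the controls these were Mmp3 on replicate 3 (6.07, highest), Cyp2t1 and Acat2 on replicate 4 (6.77 and 7.98, highest), Nsdhl on replicate 1 (9.18, lowest) and the mean of the mitosis list on replicate 1 (0.52, highest). At 1 week they were Mcl1, Ggps1 and C1qb on replicate 1 (6.03, 8.73 and 8.55, highest), Cyp51 on replicate 5 (8.88, lowest) and the mean of the immediate early genes on replicate 5 (0.13, highest).

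For 11 of the 89 genes whose difference from the controls is discussed, that difference from the shared 10-day controls had opposite signs at 3 days and at 1 week, and the direct difference between these times passed the test. Higher at 1 week than at 3 days were Apoc1 (2.01), Mgmt (0.99), Egr1 (0.77), Apoe (0.76), Inhba (0.54) and Scg2 (0.37). Lower were Rrm2 (-3.15), Pbk (-2.64), Ccna2 (-1.70), Tubb2b (-1.48) and Hspb6 (-0.96).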

How the results depend on the processing

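With 8 arrays small differences are not resolved, and the choice of controls moved the results most. The number of probes called was 0 with any 1 array left out, and 12 with all 12 controls pooled, 240 with the 3-week controls, 4 with the mean of the 10-day and 3-week controls and 313 with the 5-week controls, the last chosen after seeing the data. Probes at an unadjusted p under 0.05 numbered 1031, and 673 in a fit of the 2 groups alone, 1883, 3705, 2087 and 4376 with those controls in the same order, 632 with the filter at the median, 647 by the methods' t-test, 611 with 1 probe per gene, and 973 to 1675 with 1 array left out (1675 without control 3).

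Over 14 families, array weights, cyclic loess, quantile normalization, no filter and the mean over probes left each median within the replicate spread. Replicate numbers 1, 2 and 4 are shared by both groups but do not pair them (correlations 0.058, -0.066 and -0.018). Larger correlations lay between other arrays. Replicate 1 of 1 week had -0.4 with control 3 and 0.378 with control 4, and replicate 5 had 0.393 and -0.398. The interferon family mean was 0.59 and -0.42 on replicates 1 and 5 of 1 week. On controls 3 and 4 it was -0.75 and 0.52. Some variation thus ran through both groups, and its source was not tested. The comparison with controls 1 and 2 only keeps replicates 1 and 5 of 1 week. With the replicate block 0 probes were called, 971 at an unadjusted p under 0.05, with a complement median of -0.03. With 1 array left out the medians ran from -0.29 to -0.19 for cholesterol synthesis, 0.16 to 0.47 for microglia, -0.04 to 0.09 for complement, -0.02 to 0.11 for the lysosome and 0.05 to 0.10 for the immediate early genes. Filtering at the median gave 0.22 for complement and 0.11 for immediate early genes. Against controls 1 and 2 only the medians were -0.12 for cholesterol synthesis, -0.05 for the lysosome and 0.01 for the respiratory chain. All controls pooled gave -0.39 for cholesterol synthesis and 0.63 for the study's early response genes. The 3-week controls gave -0.35 for cholesterol synthesis, 0.13 for regeneration associated genes, -0.18 for mitochondrial ribosomal proteins, -0.03 for neuropeptides, 0.03 for mitosis and -0.07 for the study's early decreased genes. The 5-week controls gave -0.53 for cholesterol synthesis, -0.18 for mitochondrial ribosomal proteins, 0.10 for mitosis, -0.45 for early decreased genes, 0.75 for microglia, -0.16 for the respiratory chain, 0.09 for immediate early genes and 0.86 for early response genes. The cause was not tested.

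Of the 89 genes whose difference from the controls is discussed, 77 kept their direction in every setting, and for 36 leaving out 1 array moved the difference by over 1.5 times. With controls 1 and 2 only, Msmo1, Ebp, Ggps1 and Gal turned to 0.11, 0.08, 0.01 and -0.13. With array weights Msmo1, Ebp and Gal were at 0.0018, 0.01 and -0.07, and Msmo1 was at 0.01 with the replicate block and at -0.21 to 0.01 with 1 array left out. With the 3-week controls Tubb2b, Lcat, Crh, Kcnma1, Rrm2 and Pbk stood at 0.06, 0.03, -0.01, 0.11, 0.23 and 0.10, and with the 5-week controls Brca1, Lcat, Rrm2, Pbk and Ccna2 at 0.02, 0.04, 0.24, 0.28 and 0.04.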
